A study of Homo sapiens with 6 samples.

Results

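Apoptosis regulators and caspases were followed in MDA-MB-231, a long-used cell line from a triple-negative breast tumour, as 33 genes chosen by name from the 25706 genes of the table. They are BCL2-family members, caspases, factors that act downstream of mitochondria, inhibitors of apoptosis, death receptors with their adaptors, and necroptosis genes. The 6 libraries fall into 2 groups of 3: cells with tsRNA-Gly-5-0006 overexpressed, a fragment of glycine tRNA by its name, and control cells. Poly(A) RNA was sequenced, and these libraries give no level of tsRNA-Gly-5-0006. The labels give no further allele, agent or time, do not give what was introduced into the controls or by what method the small RNA was overexpressed, and do not state whether replicates were separate cultures, so p-values measure only the spread between these libraries. Deposited counts summed to 54371226 to 74586916 per library; low counts cluster at multiples of 4, so the counts given here may overstate the number of fragments. Both groups come from 1 cell line.

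Cells die by apoptosis along a mitochondrial and a receptor route. In the mitochondrial route, pro-survival BCL2 proteins hold the pore-forming effectors BAX and BAK1 in check, BH3-only proteins relieve that restraint, and cytochrome c released through the pore assembles APAF1 and caspase-9 into the apoptosome. In the receptor route, ligands such as TRAIL bring FADD and caspase-8 to death receptors, CFLAR (FLIP) limits caspase-8, and RIPK1, RIPK3 and MLKL carry necroptosis when caspase-8 is blocked. Breast cancer cells often depend on BCL2L1 or MCL1 for survival.

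All 33 genes were in the table and 31 passed the filter on low counts. None of the 31 differed between overexpressing and control cells after adjustment over all genes (edgeR quasi-likelihood test, adjusted p of at least 0.994), and the percentage called among all 15951 genes tested was 0%. An unadjusted p under 0.05 was reached by 1 of the 31, PMAIP1, where 3.83% of all tested genes did (611 genes), 2.56% with a higher and 1.27% with a lower level in overexpressing cells. DESeq2 called 0 of the 31 and 12 genes in all, 0.0759% of those with an adjusted p. On the log2 scale of fold changes, overexpression over control, 14 of the 31 were positive and 17 negative, with a median of -0.01 and a range from -0.39 to 0.63. The median over all tested genes was 0.02. For 23 of the 31 (74.2%) the log2 fold change lay within 0.2 of 0, against 58.0% of all tested genes. At the median, 95% confidence intervals had a half-width of 0.41 for the 31 and of 0.53 for all tested genes.

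**Figure D1:**
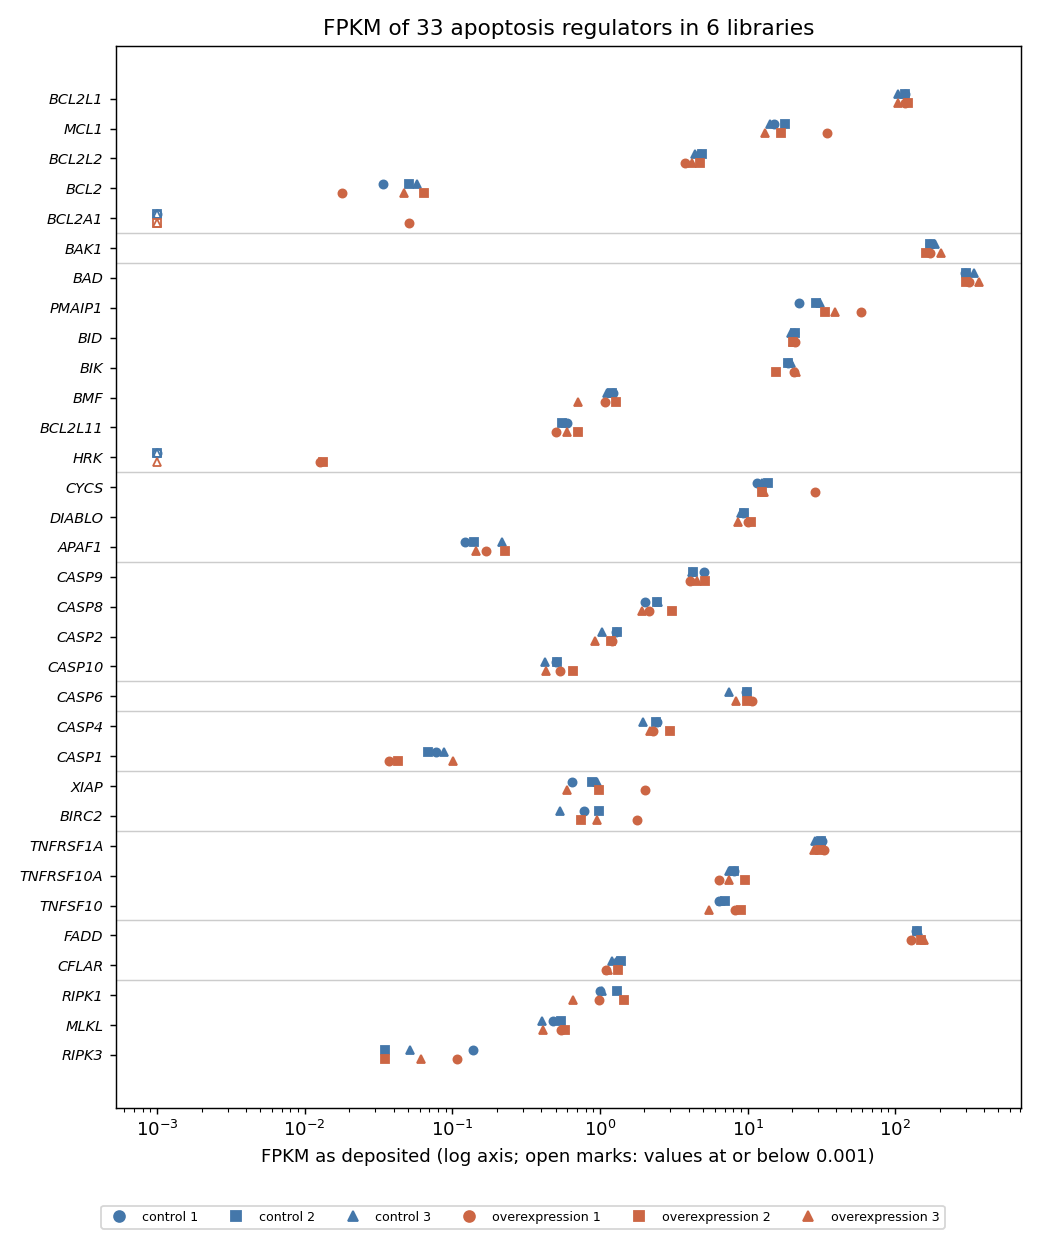
FPKM as deposited (log axis) of the 33 genes in each of 6 libraries, with genes grouped by role and grey lines between roles; blue marks are control and orange marks overexpression, and open marks are values at or below 0.001. BAD, BAK1, FADD and BCL2L1 have means above 100 FPKM, while MCL1, CYCS, XIAP, BIRC2 and PMAIP1 have overexpression 1 to the right of all other libraries.

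Levels are given in FPKM, fragments scaled to transcript length and mapped fragments. Genes can be set side by side in it only as far as the transcript lengths used are right. Mean FPKM over the 6 libraries was above 100 for 4 of the 33 genes, between 10 and 100 for 6, between 1 and 10 for 13, and at most 1 for 10. The order of levels was thus led by BAD, BAK1, FADD and BCL2L1. Across the 31 tested genes, mean FPKM had a Spearman correlation of -0.58 with the length of the longest annotated transcript and of 0.40 with its GC content, as a description of these genes, which share the same libraries. The 4 most abundant genes have transcripts of 56.9% to 66.3% GC, where the median of tested genes is 49.7%.

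Among pro-survival genes, BCL2L1, which encodes BCL-XL, was by far the highest. Its FPKM was 116, 116 and 104 across control 1 to 3 and 116, 122 and 105 across overexpression 1 to 3, and all values below follow this order. These values overlap between the groups, and replicate 3 was the lowest of each. The log2 fold change was -0.02 (SE 0.08), with a 95% confidence interval from -0.21 to 0.17. BCL2L1 made up 84.5% ± 0.892 of the summed FPKM of the 5 pro-survival genes in control libraries and 81.9% ± 5.87 in overexpressing ones (SD, n = 3 per group). MCL1, which encodes a short-lived pro-survival protein, made up 10.8% to 12.9% in 5 libraries and 22.4% in overexpression 1. BCL2L2 (BCL-W) stood between 3.78 and 4.89 FPKM, with a log2 fold change of -0.18 (SE 0.12). BCL2 itself was close to absent, at 0.0179 to 0.0643 FPKM and 19 to 60 counts. BCL2A1, a pro-survival gene known mainly from blood cells, was listed at 0 in 5 libraries and had 4 counts in overexpression 1; it was not tested. In bulk RNA a smaller share of expressing cells and less RNA per cell cannot be told apart.

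BAK1, the pore-forming effector of the list, had 172, 173 and 185 FPKM in control and 171, 161 and 204 in overexpressing cells. Its highest and its lowest value both lay in overexpressing libraries, and its log2 fold change was -0.01 (SE 0.15), and slightly positive in 3 alternative settings that keep all libraries. BAK1 FPKM was above that of BCL2L1 in every library: the ratio of BCL2L1 to BAK1 was 0.636 ± 0.0664 in control libraries and 0.649 ± 0.124 in overexpressing ones (SD, n = 3 per group). In counts, before scaling to length, BCL2L1 was the higher in every library but overexpression 3 (28803 against 22494 in control 1). The order of these genes thus depends on the transcript lengths used for FPKM.

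BH3-only genes, the sensors of the mitochondrial route, spanned the widest range of levels. BAD, whose product binds BCL2L1 and is held inactive by phosphorylation, was the highest of the 33, at 299, 301 and 340 FPKM in control and 316, 300 and 372 in overexpressing cells. Control 3 and overexpression 3 were the highest of their groups, and the groups overlap. The log2 fold change of BAD was 0.04 (SE 0.15). BID, the link from caspase-8 to mitochondria, varied least of all 31, between 19.8 and 21.1 FPKM, a ratio of 1.07 between the highest and the lowest library. BIK lay between 15.5 and 21.3 FPKM, BMF between 0.707 and 1.29, and BCL2L11 (BIM) between 0.503 and 0.708. Their log2 fold changes were -0.03 (SE 0.18), -0.27 (SE 0.21) and 0.01 (SE 0.20), none with a p under 0.238. HRK was listed at 0 in the controls and in overexpression 3, with 7 and 6 counts in overexpression 1 and 2, and was not tested.

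PMAIP1, which encodes NOXA, a BH3-only protein that neutralises MCL1, was the member with the smallest p. It was also the only member whose groups did not overlap in FPKM. The gene (ENSG00000141682) lies on hg38 chromosome 18, from 59899996 to 59904305. Its FPKM was 22.2, 29.1 and 31.1 across control 1 to 3 and 58.7, 33.7 and 39.2 across overexpression 1 to 3. In FPKM all 3 overexpressing libraries lay above all 3 controls, with overexpression 1 far the highest and overexpression 2 near control 3. In TMM-scaled log2 CPM, the scale of the edgeR fit, overexpression 2 lay below control 3, so there the groups overlap. Their deviations from the mean of the other libraries were -0.132 and -0.081. The means were 27.5 ± 4.66 for control and 43.8 ± 13.1 for overexpression (SD, n = 3 per group). The log2 fold change was 0.63 (SE 0.22, 95% confidence interval 0.11 to 1.15), or 1.54-fold, with an unadjusted p of 0.0238 and an adjusted p of 0.994 by edgeR. Groups did not overlap in FPKM for 8.22% of all tested genes, 5.67% with overexpression higher and 2.55% with it lower. By that measure 1 of 31 members (PMAIP1) was separated. Without overexpression 1 the log2 fold change was 0.39 (SE 0.17; unadjusted p 0.0471, edgeR), and the other two overexpressing libraries still lay above the controls. With an offset for GC content in each library it was 0.35 (unadjusted p 0.0554 by edgeR), the transcript having the lowest GC content of the 33 (37.2%). Without control 1, its lowest library, it was 0.50 (unadjusted p 0.0885 by edgeR), and without control 2 it was 0.66 (unadjusted p 0.0556 by edgeR).

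**Figure D2:**
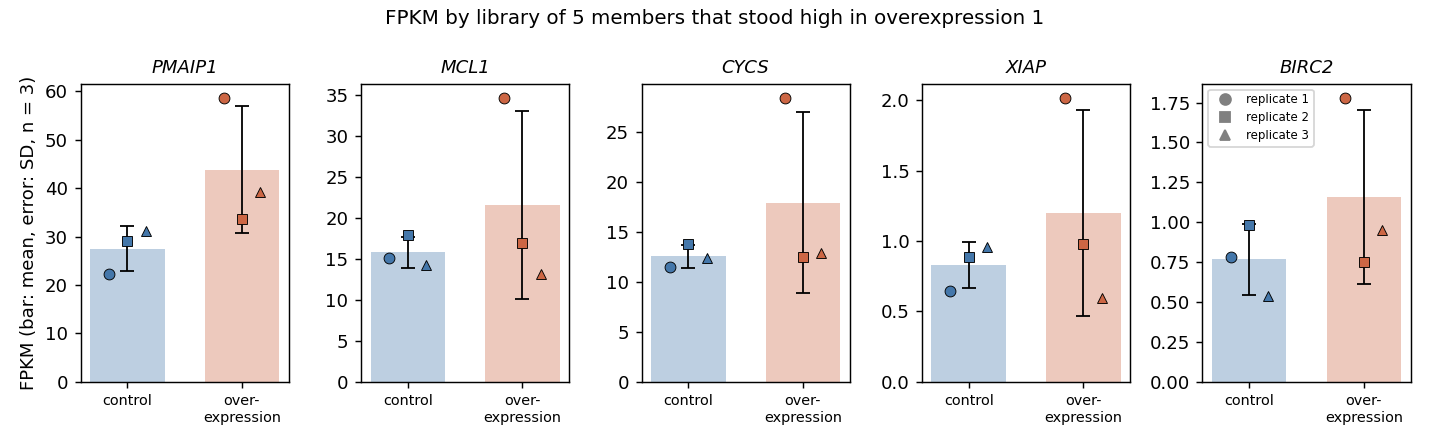
FPKM of PMAIP1, MCL1, CYCS, XIAP and BIRC2 in each library; bars are group means, error bars are SD (n = 3), and marks show replicates 1, 2 and 3. Overexpression 1 is the highest library in each panel, and only in the PMAIP1 panel do overexpression 2 and 3 also lie above all controls.

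Besides PMAIP1, 4 members stood high in overexpression 1 alone; they were picked after their values were seen. On hg38 they are MCL1 on chromosome 1 (150560895 to 150579610), CYCS on chromosome 7 (25118656 to 25125260), XIAP on chromosome X (123859712 to 123913972) and BIRC2 on chromosome 11 (102347211 to 102378670). MCL1 had 15.1, 17.9 and 14.3 FPKM in control and 34.6, 16.9 and 13.2 in overexpressing cells. Overexpression 1 was 1.93-fold above the next library, while the other two overexpressing libraries lay within or below the control range. Its log2 fold change was 0.39 (SE 0.31), and -0.10 (SE 0.12) without overexpression 1. CYCS, which encodes cytochrome c, had 11.5, 13.8 and 12.4 FPKM in control and 28.5, 12.5 and 12.9 in overexpressing cells. Again a single library was high, and the log2 fold change went from 0.46 (SE 0.29) to -0.01 (SE 0.12) without it. Without overexpression 2 it was 0.69 (unadjusted p 0.0461 by edgeR). The other two members are inhibitors of apoptosis. XIAP, which blocks caspase-9 and the executioner caspases directly, had 0.642, 0.885 and 0.956 FPKM in control and 2.02, 0.982 and 0.596 in overexpressing cells. BIRC2 (cIAP1), a ubiquitin ligase of TNF receptor signalling, had 0.785, 0.980 and 0.537 FPKM in control and 1.78, 0.749 and 0.949 in overexpressing cells. In both, overexpression 1 was at least 1.82-fold above the next library. Of the remaining overexpressing libraries, overexpression 2 lay above and overexpression 3 below all controls for XIAP, and both lay within the control range for BIRC2. Their log2 fold changes were 0.46 (SE 0.40) and 0.56 (SE 0.36) with all libraries, and -0.11 (SE 0.23) and 0.15 (SE 0.27) without overexpression 1. The unadjusted p of these 4 genes was 0.160 to 0.277 by edgeR.

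The windows around the start sites of PMAIP1, CYCS, BIRC2 and XIAP are shown because these genes shared the high value in overexpression 1; that of MCL1 is not shown. Each runs from 250 bases before to 50 bases after the RefSeq start (GRCh38.p14), written 5′ to 3′ on the strand of the gene. Capitals mark the letters TGACG, the half-site of the cAMP response element bound by CREB and ATF proteins, which read CGTCA where the match is on the other strand.
PMAIP1, chr18:59899746-59900045, plus strand: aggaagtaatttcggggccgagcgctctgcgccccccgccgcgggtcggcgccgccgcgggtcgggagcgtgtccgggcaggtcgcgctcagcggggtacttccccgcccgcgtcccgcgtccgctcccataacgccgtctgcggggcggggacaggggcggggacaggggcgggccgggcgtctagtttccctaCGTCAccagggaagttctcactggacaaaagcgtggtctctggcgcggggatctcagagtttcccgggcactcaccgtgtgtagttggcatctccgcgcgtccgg
CYCS, chr7:25125211-25125510, minus strand: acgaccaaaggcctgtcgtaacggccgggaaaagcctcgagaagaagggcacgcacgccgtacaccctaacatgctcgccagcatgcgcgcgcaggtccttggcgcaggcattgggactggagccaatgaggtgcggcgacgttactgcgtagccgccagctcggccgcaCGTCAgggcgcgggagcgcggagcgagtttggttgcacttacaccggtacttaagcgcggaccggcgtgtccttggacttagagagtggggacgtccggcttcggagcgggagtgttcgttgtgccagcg
BIRC2, chr11:102346964-102347263, plus strand: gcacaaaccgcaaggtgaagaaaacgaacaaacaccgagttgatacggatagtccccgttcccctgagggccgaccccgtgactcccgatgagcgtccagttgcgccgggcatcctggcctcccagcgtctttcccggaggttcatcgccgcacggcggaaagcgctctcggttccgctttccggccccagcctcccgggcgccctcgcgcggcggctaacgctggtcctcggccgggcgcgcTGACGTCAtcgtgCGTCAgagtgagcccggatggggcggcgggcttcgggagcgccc
XIAP, chrX:123859458-123859757, plus strand: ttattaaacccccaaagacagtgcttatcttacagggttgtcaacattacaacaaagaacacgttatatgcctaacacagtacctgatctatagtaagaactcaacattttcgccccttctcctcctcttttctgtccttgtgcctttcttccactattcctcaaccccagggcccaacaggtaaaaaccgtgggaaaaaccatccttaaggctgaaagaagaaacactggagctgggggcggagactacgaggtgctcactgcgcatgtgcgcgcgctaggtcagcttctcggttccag
PMAIP1 and CYCS held the half-site once, with its leading base 55 and 80 bases before the start, and XIAP did not hold it. BIRC2 held it 3 times, of which a pair overlaps within the palindrome TGACGTCA. That palindrome occurs in 1.98% of all 27305 promoter windows, and among the 26 members with a window it occurs only in BIRC2. The half-site was in 11 of the 26 (42.3%) and in 25% of all windows. The GC box, GGGCGG on either strand, was in 19 of the 26 (73.1%) and in 44.6% of all windows. PMAIP1 held it 4 times, BIRC2 and XIAP once each, and CYCS not at all. The CCAAT box (CCAAT) was in 10 of the 26 (38.5%) and in 35.7% of all windows. The TATA box, searched as TATAAA, was in 4 of the 26 (15.4%) and in 12% of all windows. The 27305 windows were not limited to genes tested here, so these shares do not compare the members with other expressed genes. A match describes letters in the window and is not a binding site.

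Library overexpression 1 was set against the mean of the other 5 across the transcriptome. The shares past a limit were not counted for the other libraries, so they do not rank overexpression 1 among the libraries. In log2 CPM overexpression 1 lay more than 0.5 above the mean of the other 5 for 6 of the 31 tested members (19.4%) and for 20.7% of all tested genes. It lay more than 1 above for 4 members (12.9%) and for 10.4% of all genes, so that both shares of the members were close to those of all genes. The 6 were XIAP (1.26), BIRC2 (1.09), CYCS (1.09), MCL1 (1.09), PMAIP1 (0.86) and RIPK3 (0.685). For RIPK3 that difference rests on 8 to 28 counts, and its FPKM was higher in control 1 (0.137) than in overexpression 1 (0.108). BCL2 (-1.41) and CASP1 (-0.95) lay more than 0.5 below, each at no more than 60 counts, where 7.45% of all genes did. The deviation moved with GC content. Among the 25% of tested genes with the lowest GC content (up to 42.8%), overexpression 1 was 0.44 above the other libraries at the median, and 46.7% of genes exceeded 0.5; 4 of 9 members in that range did. Among the 25% with the highest GC content the median was -0.10, and 0 of 4 members exceeded 0.5. Spearman correlations of deviation with GC content, as descriptions over genes of the same libraries, were -0.29 over 31 members and -0.41 over 15338 tested genes. GC content also went with the deviation of overexpression 3, in the opposite direction. Its median was -0.16 in the 25% of tested genes with the lowest GC content and 0.12 in the highest 25%. Overexpression 1 also had the highest value for 12 of 13 fibroblast markers listed, of which 7 had a mean below 0.1 FPKM. Their summed FPKM was 17.1 there and 4.16 to 6.52 in the other 5 libraries, and COL3A1 and DCN were at 0 in those 5. It was likewise highest for 9 of 12 markers of MDA-MB-231, 3 of 10 luminal and epithelial, 2 of 9 leukocyte and 3 of 6 endothelial markers. The part of GC content and of the fibroblast markers in the members' values was not tested.

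**Figure D3:**
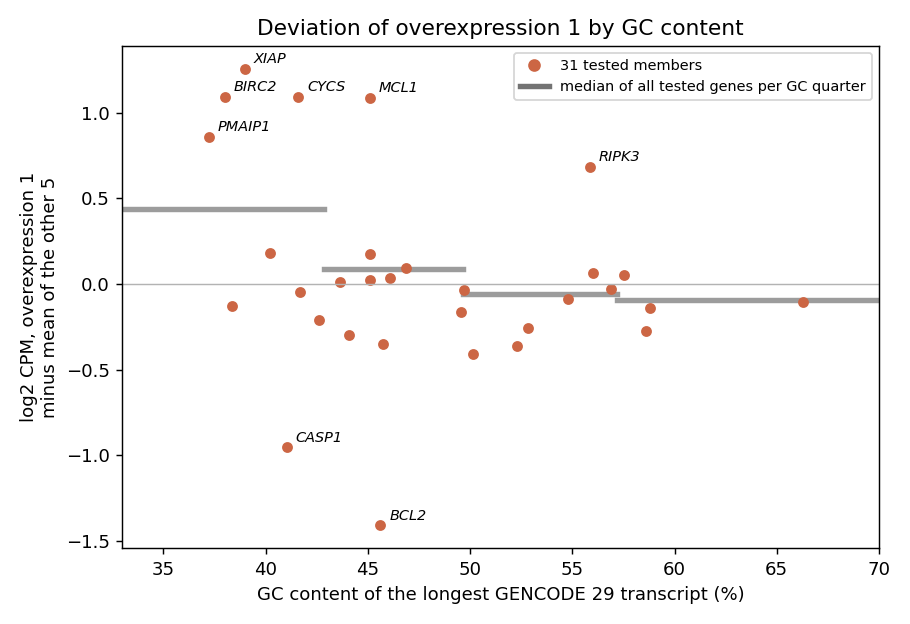
Deviation of overexpression 1 from the mean of the other 5 libraries (log2 CPM) against the GC content of the longest GENCODE 29 transcript, for the 31 tested members (points) and as the median of all tested genes in each of 4 equal classes of GC content (grey lines). XIAP, BIRC2, CYCS, MCL1 and PMAIP1 lie above 0.5 at GC contents from 37.2% to 45.1%, as does RIPK3 at 55.9%, and the grey median falls from 0.44 to -0.10.

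Downstream of the mitochondria, the partners of cytochrome c did not share the value of CYCS in overexpression 1. DIABLO (SMAC), which frees caspases from inhibitors of apoptosis, had 9.27, 9.51 and 9.01 FPKM in control and 10.1, 10.6 and 8.64 in overexpressing cells. Its groups overlap, and its log2 fold change was 0.03 (SE 0.08). APAF1, the scaffold of the apoptosome, was low, at 0.121 to 0.226 FPKM and 58 to 140 counts, with a log2 fold change of 0.11 (SE 0.29).

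Caspases are made as inactive precursors and are regulated largely by cleavage, so that mRNA levels do not measure their activity. Among the initiators, CASP9 was the highest, at 5.09, 4.26 and 4.20 FPKM in control and 4.09, 5.12 and 4.53 in overexpressing cells, with a log2 fold change of -0.02 (SE 0.14). CASP8, the initiator of the receptor route, had 1.94 to 3.09 FPKM, with overexpression 2 highest and overexpression 3 lowest. Its log2 fold change was -0.01 (SE 0.17), and those of CASP2 and CASP10 were -0.17 (SE 0.15) and 0.13 (SE 0.18). CASP6, the executioner caspase of the list, had 9.69, 9.89 and 7.47 FPKM in control and 10.8, 9.92 and 8.34 in overexpressing cells. Replicate 3 was again the lowest of each group, and the log2 fold change was 0.06 (SE 0.14). Of the inflammatory caspases, CASP4, a sensor of bacterial lipopolysaccharide, had 2.43, 2.39 and 1.95 FPKM in control and 2.29, 2.99 and 2.20 in overexpressing cells, a log2 fold change of 0.10 (SE 0.15). CASP1 was near the limit of measurement, at 12 to 32 counts, and its confidence interval ran from -1.67 to 0.88.

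**Figure D4:**
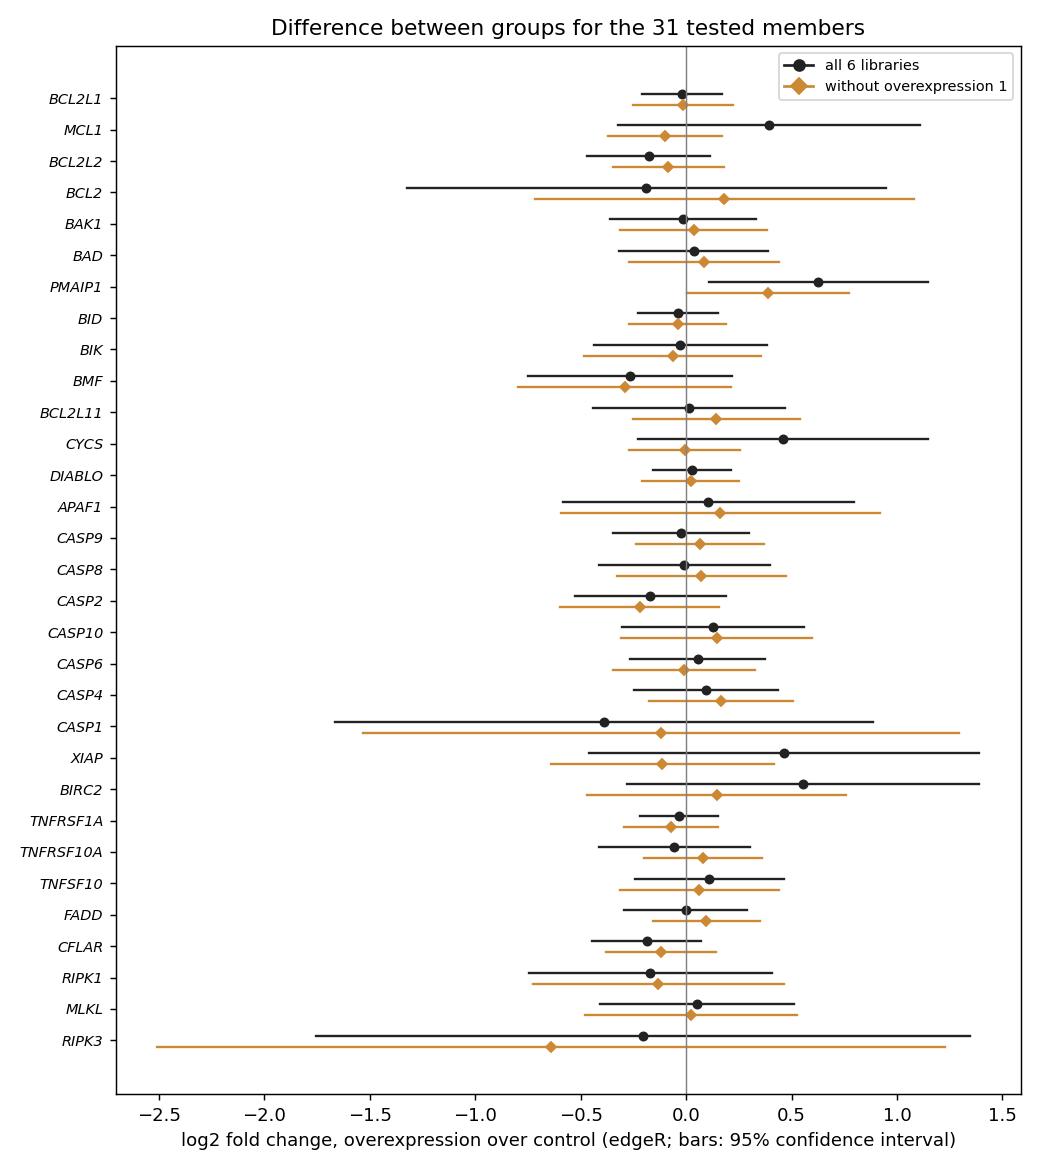
Log2 fold change, overexpression over control, of the 31 tested members by edgeR with all 6 libraries (black) and without overexpression 1 (orange); bars are 95% confidence intervals. PMAIP1 is the only member whose intervals exclude 0, and MCL1, CYCS, XIAP and BIRC2 move towards 0 without overexpression 1.

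Of the receptor route, TNFRSF1A, the main receptor for TNF, had 31.8, 31.5 and 28.5 FPKM in control and 33.2, 31 and 28.3 in overexpressing cells. The groups overlap, with replicate 3 lowest in each in FPKM. In TMM-scaled log2 CPM overexpression 2 was the lowest overexpressing library. The log2 fold change of TNFRSF1A was -0.03 (SE 0.08, 95% confidence interval -0.22 to 0.15). TNFRSF10A, a receptor for TRAIL, had 6.44 to 9.59 FPKM, the lowest in overexpression 1 and the highest in overexpression 2. TNFSF10, which encodes TRAIL, had 6.37, 7.05 and 6.65 FPKM in control and 8.18, 8.96 and 5.45 in overexpressing cells. Overexpression 1 and 2 lay above the controls and overexpression 3 below them, and the log2 fold change was 0.11 (SE 0.15). FADD, the adaptor that recruits caspase-8, had the highest FPKM of the receptor route, at 139, 141 and 143 FPKM in control and 127, 149 and 157 in overexpressing cells. Its log2 fold change was -0.003 (SE 0.13), and positive in 5 of the alternative settings that keep all libraries. Without overexpression 1, FADD joined PMAIP1 as a member whose groups did not overlap in FPKM, 2 of 31 where 15.5% of all genes were separated. The log2 fold change of FADD was then 0.10 (SE 0.11). In TMM-scaled log2 CPM of all libraries, overexpression 2 lay below control 3 for both genes. For FADD their deviations from the mean of the other libraries were -0.038 and 0.084. CFLAR, the competitor of caspase-8, had 1.33, 1.39 and 1.21 FPKM in control and 1.10, 1.33 and 1.13 in overexpressing cells. The groups overlap, with a log2 fold change of -0.19 (SE 0.11; unadjusted p 0.132, edgeR). The FPKM ratio of CFLAR to CASP8 was 0.569 ± 0.0828 for control and 0.506 ± 0.0747 for overexpression (SD, n = 3 per group). In counts CFLAR was above CASP8 in every library (1775 to 2219 against 877 to 1467). A ratio below 1 thus rests on the scaling to transcript length, and the longest annotated transcripts have 14672 and 2930 bases.

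The 3 necroptosis genes among the members had mean levels of at most 1.07 FPKM. RIPK1, a kinase of both survival and death signalling, had 0.999, 1.31 and 1.03 FPKM in control and 0.993, 1.45 and 0.654 in overexpressing cells. The overexpressing libraries included the highest and the lowest value, and the log2 fold change was -0.17 (SE 0.25). MLKL, the membrane-permeabilising executor, had 0.402 to 0.582 FPKM and a log2 fold change of 0.05 (SE 0.20). RIPK3, the kinase that activates MLKL, had 0.0348 to 0.137 FPKM from 8 to 28 counts, and its 95% confidence interval ran from -1.76 to 1.35.

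Without overexpression 1, 16 of the 31 members had a positive log2 fold change, and the median was 0.02. Within 0.2 of 0 lay 27 of 31 (87.1%), against 63.1% of the 15881 genes tested both with and without that library. At an unadjusted p under 0.05 by edgeR stood 1 of the 31, PMAIP1 again, where 2.89% of all genes tested did so; 4 of those genes (0.0247% of those tested) and 0 members had an adjusted p under 0.05.

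Other genes of the same pathways were read from lists of 76 genes, chosen with earlier results of these data known, of which 68 were in the table and 63 could be tested. By edgeR 0 of the 63 had an adjusted p under 0.05 and 5 had an unadjusted p under 0.05, 3 with positive and 2 with negative log2 fold changes (7.94%, where 3.83% of all tested genes had one). Over the 63 the median was -0.03, and 28 were positive. Of 10 other BCL2-family genes tested, BNIP3L, a mitophagy receptor, had a log2 fold change of 0.57 (SE 0.27), or 0.20 (SE 0.17) without overexpression 1. BAX, the other main pore-forming effector, had 40.7, 44.3 and 45.2 FPKM in control and 37.7, 39.3 and 40.8 in overexpressing cells, a log2 fold change of -0.18 (SE 0.10). The values overlap at control 1 and overexpression 3. BNIP3 was at 0.17 (SE 0.16), and -0.05 without overexpression 1.

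Of 13 other caspases, nucleases and pyroptosis genes, CASP8AP2, whose product binds caspase-8, was high in overexpression 1, with 965 counts there and 34 to 59 in the other libraries. Its log2 fold change was 2.67 (SE 1.08), and 0.11 (SE 0.37) without that library. NLRP1, an inflammasome sensor, was at -0.20 (SE 0.17). Of 6 other inhibitors of apoptosis and their antagonists, BIRC3 (cIAP2), the close relative of BIRC2, likewise had its highest FPKM in overexpression 1 (2.51, and 0.783 to 1.37 elsewhere). BIRC5 (survivin) had a log2 fold change of -0.13 (SE 0.10) and BIRC6 one of 0.19 (SE 0.32).

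Among 21 other death receptors, ligands and adaptors, the death receptor gene TNFRSF25 was the single one whose groups did not overlap in FPKM. That is 4.76% of these genes, where 8.22% of all tested genes were separated. It had 0.147, 0.146 and 0.162 FPKM in control and 0.231, 0.251 and 0.284 in overexpressing cells. All 3 overexpressing libraries were higher, and the log2 fold change was 0.69 (SE 0.25; unadjusted p 0.0272, edgeR), or 0.79 (SE 0.32) without overexpression 1. DAXX, a histone chaperone that also binds death receptors, was at -0.20 (SE 0.08; unadjusted p 0.0402, edgeR), and TNFRSF1B, the second TNF receptor, at -0.26 (SE 0.13). Of 13 regulators of necroptosis and of the TNF receptor complex, the kinase gene MAP3K7 (TAK1) was at 0.62 (SE 0.26), or 0.46 (SE 0.27) without overexpression 1, at 0.143 to 0.338 FPKM. SPATA2 and IKBKG had log2 fold changes of -0.14 (SE 0.13) and 0.10 (SE 0.10). IKBKG (NEMO) had 11.6 to 12.6 FPKM in control and 12.7 to 14.2 in overexpressing cells. With RBCK1 and TNFRSF25 it is 1 of 3 of the 63 genes whose groups did not overlap in FPKM (4.76%), a share below the 8.22% of all tested genes. In TMM-scaled log2 CPM the groups of IKBKG and RBCK1 overlap. Overexpression 1 of IKBKG deviated by -0.093 from the other libraries and control 3 by 0.037. Overexpression 2 of RBCK1 deviated by -0.101 and control 1 by -0.002.

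Some members share their position with other annotated genes, and the strandedness of counting is not given in the sources used here. On the same strand, BCL2L2 (1358 to 1746 counts) overlaps the readthrough gene BCL2L2-PABPN1 (766 to 1326 counts), so their counts may be split. On the opposite strand, BCL2L11 (250 to 333 counts) overlaps MIR4435-2HG (5472 to 8724 counts), CASP6 overlaps MCUB (2308 to 3341 counts) and BAD overlaps GPR137 (6583 to 9695 counts). CYCS has processed pseudogenes whose near-identical sequence could take some of its reads. Markers of the line were present: VIM at 365 to 460 FPKM, CD44 at 34.4 to 49.6, and AXL at 36.4 to 65.4. The 10 luminal and epithelial markers listed were not low as a whole, with a summed FPKM of 3082 to 3363 in control and 3002 to 3766 in overexpressing cells. KRT19 (1895 to 2505 FPKM), KRT8 (556 to 656) and KRT18 (482 to 556) made up most of that sum, and XBP1 had 39.8 to 54.9. Of the same list, PGR was at 0 in 5 libraries and CDH1 was at 0.0424 FPKM at most. EPCAM had 0.0898 to 0.283 FPKM, GATA3 0.527 to 0.909, MUC1 1.45 to 2.54 and ERBB2 5.12 to 6.39. The list as fixed had 12 genes, and its luminal markers ESR1 and FOXA1 were not found by name in the table. EGFR and ZEB1, listed as markers of the line, had at most 0.849 and 0.372 FPKM in any library. SPARC, also listed as such, had 2.69 FPKM in overexpression 1 and 0.00994 to 0.0583 elsewhere. The 9 leukocyte markers listed summed to 14.8 to 18.4 FPKM in control and 15.2 to 19.0 in overexpressing cells, of which CD14 alone gave 13.0 to 16.7 and CSF1R 1.45 to 1.74. PTPRC was at 0 in 5 libraries.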

How the data were processed

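Poly(A) RNA of 6 MDA-MB-231 libraries was sequenced. Per the submitters' processing notes, the authors' tools were StringTie 1.3.4d, HISAT2 2.0.4, cutadapt 1.9 and edgeR, on hg38; annotation release and strandedness are not given in the sources used here. The deposited expected counts are whole numbers, not scaled between libraries, and were treated as coverage-based estimates, for which counting intervals were not computed. The deposited FPKM values were scaled by the authors to transcript length and mapped fragments.

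Counts were tested with edgeR 4.0.16 (quasi-likelihood, TMM scaling, filterByExpr with a minimum count of 10, group as the only term, 2-sided) in R 4.3.3, with Benjamini-Hochberg adjustment over 15951 genes and a threshold of 0.05. The same fit gave SEs and confidence intervals; means and SDs are of FPKM. DESeq2 1.42.0, limma 3.58.1 on log2(FPKM + 1) and, separately, on log2(FPKM + 0.1), both above a mean FPKM of 1, other scalings and filters, the replicate number as a block, and each library left out were alternatives. A GC offset per library and counts divided by 4 were added after seeing the data. Deviations are in TMM-scaled log2 CPM with a prior count of 2. Overlap between groups was judged on the deposited FPKM, to which the TMM factors were not applied. GC content was available for 96.2% of tested genes (GENCODE 29). Promoter windows come from RefSeq (GRCh38.p14) and matched 26 of 33 members by symbol. The edgeR procedure was tested on simulated data.

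Members and lists were chosen with earlier results of these data known. Values in every library are given for members with an unadjusted p under 0.05, without overlap between groups or highest in their role, and for others chosen after their values were seen; of each list of other pathway genes, up to 3 with the smallest p are named, and others after their values were seen. A result for 1 gene of these lists is not reported here.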

Additional observations from a re-analysis of the deposited data

How the results depend on the processing

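Over the 16 alternatives, 0 members were called by edgeR, DESeq2 or limma. The whole table gave 12 calls with DESeq2, against 0 with edgeR, and 0 to 4 with 1 library left out (4 without overexpression 1, 2 without overexpression 2). With the replicate number as a block, 0 members had an unadjusted p under 0.05 and 438 genes in all did (2.75%), against 611 (3.83%) without it, though nothing in the labels pairs the libraries and deviations of same-numbered libraries correlated at -0.03, 0.04 and 0.07; with the GC offset 0 members and 3.62% of all genes did. With 1 library left out that count was 0 to 2, CYCS joining PMAIP1 without overexpression 2 (unadjusted p 0.0461 by edgeR); of all genes, 6.75% did so without overexpression 2, 11.3% without overexpression 3 and 1.85% to 2.89% without each of the other libraries. The count of members whose groups did not overlap in FPKM was then 1 to 8. It was 8 without overexpression 3 (29.6% of all genes), 6 without overexpression 2 (18.3%) and 3 without control 3 (16%). PMAIP1 kept a positive log2 fold change in every alternative (0.35 to 0.82; adjusted p of at least 0.438). Signs of members near 0 changed as follows, without a call. With the GC offset per library, log2 fold changes were 0.0173 for BCL2L1, 0.0106 for BAK1, 0.00634 for BIK, -0.0228 for BCL2L11, -0.11 for CASP4, 0.00651 for CASP9, -0.0135 for APAF1, -0.0232 for DIABLO, 0.0232 for FADD, 0.00101 for TNFRSF1A and -0.0621 for TNFSF10. With limma on log2(FPKM + 1) they were 0.0269 for BCL2L1, 0.0125 for BAK1, 0.00296 for BID, 0.0215 for CASP8, 0.0163 for CASP9, 0.0288 for FADD and 0.00953 for TNFRSF1A. With limma on log2(FPKM + 0.1) they were 0.0271 for BCL2L1, 0.0125 for BAK1, 0.00311 for BID, 0.0241 for CASP8, 0.0194 for CASP9, 0.029 for FADD and 0.00978 for TNFRSF1A. Upper-quartile scaling gave -0.0131 for BCL2L11 and -0.00877 for DIABLO. The filter on mean FPKM gave 7.29e-05 for BCL2L1, 0.00976 for CASP8 and 0.0116 for FADD. No filter gave 0.00144 for FADD. With 1 library left out, ranges were -0.0519 to 0.41 for APAF1, -0.13 to 0.14 for BAD, -0.19 to 0.0923 for BAK1, -0.53 to 0.18 for BCL2, -0.0511 to 0.00909 for BCL2L1, -0.0717 to 0.14 for BCL2L11, -0.0908 to 0.0104 for BID, -0.18 to 0.14 for BIK, -0.00718 to 0.17 for CASP4, -0.0461 to 0.11 for CASP6, -0.18 to 0.0711 for CASP8, -0.0773 to 0.0721 for CASP9, -0.00772 to 0.69 for CYCS, -0.14 to 0.0956 for FADD, -0.0992 to 0.61 for MCL1, -0.036 to 0.14 for MLKL, -0.44 to 0.0313 for RIPK1, -0.64 to 0.47 for RIPK3, -0.18 to 0.0784 for TNFRSF10A, -0.0708 to 0.00306 for TNFRSF1A and -0.11 to 0.76 for XIAP. The causes of these changes were not tested. Members under about 1 FPKM have wide intervals, and the groups of 3 limit every comparison.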
